A study of Mus musculus with 10 samples.

Results

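The genes described here are Sox2, the long noncoding RNA gene Sox2ot that spans it, and 6 further Sox transcription factor genes, Sox3, Sox4, Sox5, Sox6, Sox9 and Sox11, in the intermediate lobe (IL) of the mouse pituitary. They were taken by name, with earlier results of these data known, and are 8 of the 29527 genes in the table of bulk RNA sequencing values. Wild-type mice (WT, 4 animals) were set beside 3 p27-/- animals and 3 animals that were p27-/-;Sox2+/-, all aged 2 to 3 months. The p27-/- mice carry a null Cdkn1b allele on both chromosomes, so that every cell of the body lacks P27, and the p27-/-;Sox2+/- mice lack in addition 1 copy of Sox2. All groups are on a mixed genetic background and both sexes were used. There was no group with 1 copy of Sox2 and intact p27 among these samples, so the loss of the Sox2 copy was seen only where p27 was also lost. The study's methods name more than 1 Sox2 mutant allele and do not say which was used for these libraries.

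SOX proteins bind DNA through a high mobility group domain and fall into groups by sequence. SOX2 and SOX3 belong to SOXB1, SOX4 and SOX11 to SOXC, SOX5 and SOX6 to SOXD, and SOX9 to SOXE. SOX2 marks the stem cells that line the pituitary cleft, many of which also contain SOX9, and at a lower level it is found in melanotrophs, the hormone-producing cells of the IL. P27, best known as an inhibitor of cyclin-dependent kinases, also takes part in repressing Sox2 through an enhancer downstream of the gene. IL tumors develop in p27-/- mice, and the study asked how Sox2 dosage bears on them. The comparisons of p27-/- with WT, of p27-/-;Sox2+/- with WT and of the mutants with each other ask which Sox genes follow the loss of P27 and which follow the Sox2 copy.

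Sox2 lies on the plus strand of chromosome 3, at 34649995 to 34652461 of mouse build GRCm38.p6, inside the span of Sox2ot, which runs from 34560381 to 34677993 on the same strand. None of the Sox2 exons overlapped a Sox2ot exon in the GENCODE M1 annotation, 0 in all. The study counted reads on a different, Ensembl annotation, whose exons were not compared here. Unspliced Sox2ot RNA would also run across Sox2 on the same strand, so how well reads of both genes are told apart is not known. Sox4 (chromosome 13, 28948919 to 28953699) and Sox11 (chromosome 12, 27334268 to 27342718) are both on the minus strand. The 250 bases before the annotated start are shown for these 3 genes because Sox2 is the gene whose copy number was altered, Sox11 is the Sox gene with the largest difference between genotypes, and Sox4 is its SOXC relative. The sequences are those of RefSeq, GRCm38.p6, at chr3:34649745-34649994 on the plus strand, chr13:28953700-28953949 on the minus strand and chr12:27342719-27342968 on the minus strand, and the capitals mark matches on either strand to CCAAT (the box bound by NF-Y), ATGCAAA (an octamer read by POU factors), TATAAA or ACAAAG (a SOX core motif).
Sox2: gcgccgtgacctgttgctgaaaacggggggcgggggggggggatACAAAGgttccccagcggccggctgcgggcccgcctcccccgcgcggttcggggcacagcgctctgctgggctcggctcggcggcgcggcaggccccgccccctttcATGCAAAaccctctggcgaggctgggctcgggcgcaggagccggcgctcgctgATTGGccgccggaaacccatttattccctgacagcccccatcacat
Sox4: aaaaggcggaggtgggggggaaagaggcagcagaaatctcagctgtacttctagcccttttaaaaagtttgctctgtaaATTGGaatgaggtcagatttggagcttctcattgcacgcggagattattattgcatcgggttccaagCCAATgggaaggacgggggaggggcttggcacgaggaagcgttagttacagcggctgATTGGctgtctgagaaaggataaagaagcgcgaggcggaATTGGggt
Sox11: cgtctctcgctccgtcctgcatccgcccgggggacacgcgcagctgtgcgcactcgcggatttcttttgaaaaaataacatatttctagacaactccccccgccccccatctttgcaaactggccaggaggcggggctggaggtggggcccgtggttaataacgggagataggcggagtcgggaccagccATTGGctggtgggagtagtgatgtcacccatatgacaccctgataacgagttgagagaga

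Each of these stretches held at least 1 CCAAT box, read on the gene's strand or as ATTGG: 1 in Sox2, 4 in Sox4 and 1 in Sox11. Of 32851 mouse promoters of the same length in the RefSeq table, 33.8% held it on either strand. Sox2 alone of the 3 held ATGCAAA, at 99 to 93 bases before its start, and the ACAAAG motif, at 206 to 201 bases before it. The base after ATGCAAA there is A, so the full octamer, which ends in T, was absent. ATGCAAA was in 4.12% of all promoters and ACAAAG in 16.5%. TATAAA was in none of the 3 and in 12.4% of all promoters, and TTCCCGC, a motif of E2F factors searched on both strands but not capitalised, was likewise in none of the 3 and in 3.82% of all. GGGCGG, an SP1 motif, also not capitalised, was in Sox2 and in Sox11 and in 32.7% of all promoters. The GC content was 72.0% in Sox2, 50.8% in Sox4 and 58.0% in Sox11. These matches are a description of the letters and were not tested for binding.

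The values are log2 normalised expression as deposited, and differences between genotypes are log2 fold changes from limma with their standard errors (SE). The reads behind each value are not known from the table, so the number of mice limits the precision. The values are not scaled to gene length, so no order of levels is read between genes. Of the 8 genes, 7 passed the minimum mean of 3.32, which corresponds to 10 on the linear scale. An adjusted p under 0.05 over the 17268 tested genes was called a change. Pomc, which encodes the melanotroph hormone precursor, was at 18.0 to 19.0, and the IL regulators Pax7 and Tbx19 were at 11.4 to 12.0 and 10.6 to 10.9, so defining markers of the IL were present in every sample. Cdkn1b itself was at 8.54, 8.85, 8.39 and 8.66 in WT, at 8.27, 8.04 and 8.22 in p27-/- and at 8.10, 7.73 and 7.83 in p27-/-;Sox2+/-. Every mutant sample was below every WT sample. Cdkn1b fell by 0.43 in p27-/- (SE 0.12, adjusted p = 0.047) and by 0.72 in p27-/-;Sox2+/- (SE 0.12, adjusted p = 0.00854), and reads assigned to the gene remained in all mutants. The first of these calls was lost in 14 of 20 alternative analyses, 7 of them leaving out 1 sample: WT replicate 2 or 4 (adjusted p = 0.0868 and 0.104), p27-/- replicate 1, 2 or 3 (0.0929, 0.175 and 0.123) or p27-/-;Sox2+/- replicate 2 or 3 (0.0597 and 0.0573). The second was lost without p27-/-;Sox2+/- replicate 2 (adjusted p = 0.0661).

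Among the 7 tested genes, 2 changed in p27-/- against WT: Sox11 rose and Sox6 fell. Over all tested genes 7.78% changed in this comparison, 3.16% upward and 4.62% downward. Against WT, 2 of the 7 changed in p27-/-;Sox2+/- mice, Sox11 upward and Sox2ot downward, where 2.71% of all tested genes changed, 0.828% upward and 1.88% downward. Between the mutants 1 changed, Sox2ot, which was lower in p27-/-;Sox2+/-, where 0.145% of all tested genes changed, 0.0811% upward and 0.0637% downward. The median difference of the 7 genes was -0.17, -0.24 and -0.12 in the 3 comparisons, against 0.0087, 0.0098 and -0.0044 over all tested genes. Both comparisons with WT use the same 4 WT samples. Groups without overlap were common over all tested genes: all p27-/- samples were above all WT samples for 10.2% and below them for 10.3%, all p27-/-;Sox2+/- samples were above WT for 7.02% and below it for 8.01%, and between the mutants the shares were 7.51% and 7.75%.

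**Figure D1:**
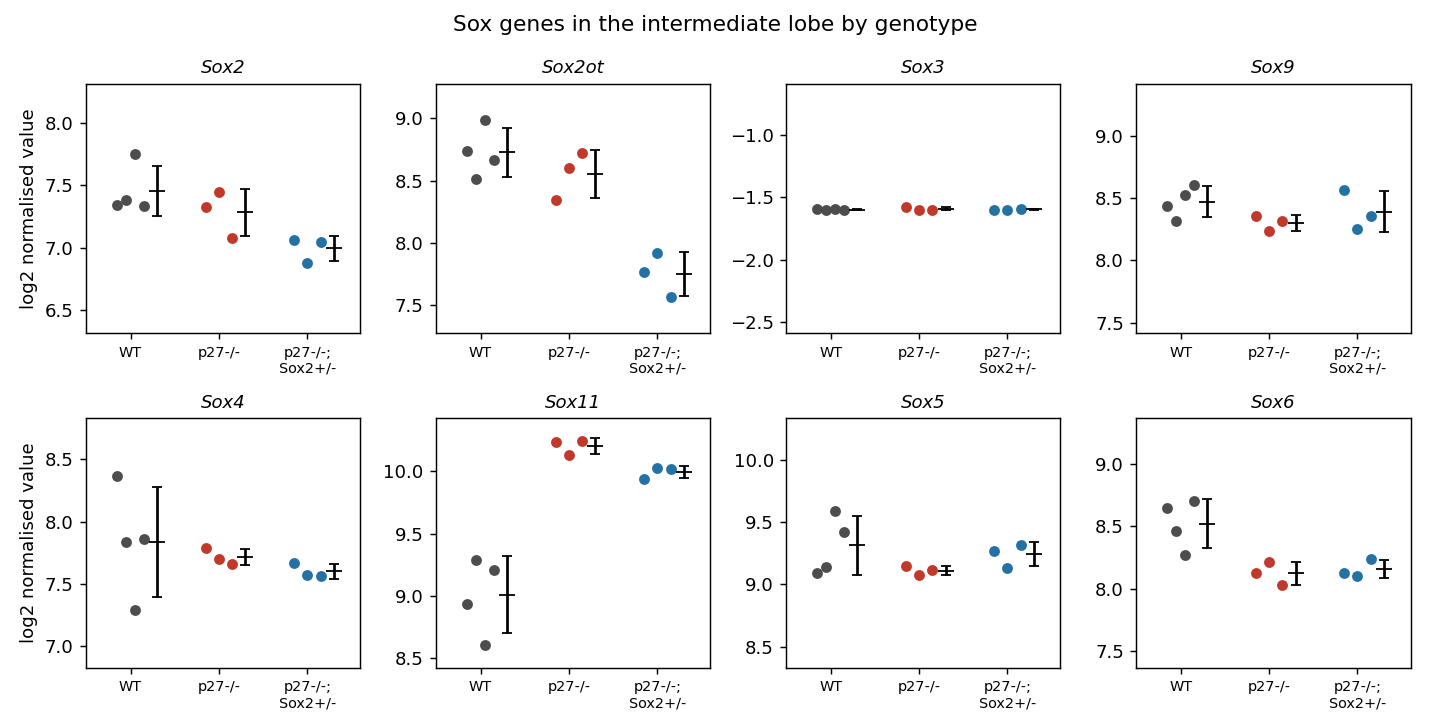
Log2 normalised value of each gene (vertical axis, spanning 2 units in every panel but at a different level) in each mouse, by genotype (horizontal axis); points are mice and the bars beside them the mean ± SD. Sox11 separates WT from both mutants, Sox2ot separates p27-/-;Sox2+/- from the others, and Sox3 stays at about -1.60 throughout.

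Sox2, the SOXB1 factor of pituitary stem cells, was at 7.35, 7.39, 7.75 and 7.34 in WT, at 7.33, 7.45 and 7.08 in p27-/- and at 7.07, 6.88 and 7.04 in p27-/-;Sox2+/-. The p27-/- samples overlapped WT, while each p27-/-;Sox2+/- sample was below each sample of the other genotypes, by a small margin from p27-/- replicate 3. The group means were 7.46 ± 0.20 (SD, n = 4), 7.28 ± 0.19 (SD, n = 3) and 6.996 ± 0.10 (SD, n = 3). Sox2 mRNA was not shown to differ in p27-/- (log2 fold change -0.17, SE 0.13, 95% CI -0.45 to 0.11, adjusted p = 0.459). This is a value of the whole lobe. By in situ hybridisation the study reported more Sox2 RNA in p27-/- stem cells and melanotrophs, while its RT-qPCR of the IL showed no increase. For p27-/-;Sox2+/- that RT-qPCR showed less Sox2 than in WT and in p27-/-. In situ hybridisation of older mice also showed less than in p27-/-. In the values read here, the p27-/-;Sox2+/- level of Sox2 was 0.727 times that of WT (log2 fold change -0.46, SE 0.13, 95% CI -0.74 to -0.18), and this did not pass (adjusted p = 0.0811). It passed in 1 of 20 alternative analyses, with array weights (adjusted p = 0.0275), and the adjusted p ran from 0.0275 to 0.305 over all of them. Without WT replicate 3, the WT sample with the most Sox2, the difference was -0.36 (adjusted p = 0.145). Between the mutants it was -0.29 (SE 0.14, 95% CI -0.59 to 0.01, adjusted p = 0.791). In whole tissue, fewer cells of a type and less RNA per cell cannot be told apart, which holds for every gene here.

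Sox2ot is transcribed across the Sox2 locus and is found in neural and stem cell tissues. It was at 8.73, 8.51, 8.99 and 8.66 in WT, at 8.34, 8.60 and 8.72 in p27-/- and at 7.77, 7.92 and 7.56 in p27-/-;Sox2+/-. The highest p27-/-;Sox2+/- sample was below the lowest of the other 7 samples, and p27-/- overlapped WT. Sox2ot fell by 0.97 against WT in p27-/-;Sox2+/- (SE 0.13, 95% CI -1.25 to -0.70, adjusted p = 0.0027), to 0.509 times the WT level, and the call held in 20 of 20 alternatives. Against p27-/- it fell by 0.80 (SE 0.14, 95% CI -1.10 to -0.50, adjusted p = 0.0435), to 0.574 times. The second call held in 8 of 20 alternatives. It was lost without WT replicate 4 (adjusted p = 0.0704), without p27-/- replicate 1, 2 or 3 (0.0614, 0.164 and 0.38) and without p27-/-;Sox2+/- replicate 1, 2 or 3 (0.173, 0.113 and 0.183), while the difference itself stayed between -0.91 and -0.71. In p27-/- with both Sox2 copies the difference from WT was -0.17 (SE 0.13, 95% CI -0.45 to 0.11, adjusted p = 0.45).

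The Sox2ot value minus the Sox2 value of the same mouse, whose size depends on the lengths of both genes and which is compared only between mice, was 1.39, 1.13, 1.23 and 1.33 in WT, 1.02, 1.15 and 1.64 in p27-/- and 0.70, 1.04 and 0.52 in p27-/-;Sox2+/-. The p27-/-;Sox2+/- range overlapped that of p27-/- and lay below that of WT. Sox2 and Sox2ot had a Pearson r of 0.76 over the 10 samples, which include the genotype differences of both, and of 0.16 once each genotype's mean was taken away.

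**Figure D2:**
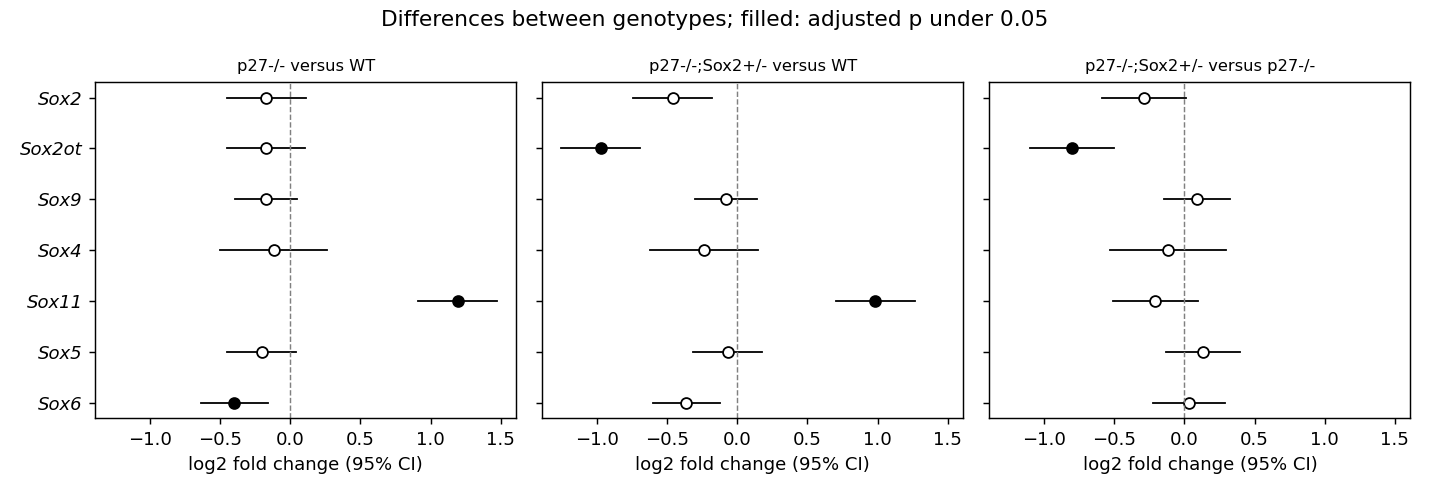
Log2 fold change (horizontal axis, with its 95% CI as a line) of the 7 tested genes in the 3 comparisons; filled points have an adjusted p under 0.05. Sox11 lies at 1.19 and 0.98 against WT, and Sox2ot at -0.97 against WT and -0.80 against p27-/-.

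The deleted copy sits in a locus with other measured transcripts. In p27-/-;Sox2+/- against WT, 2.71% of all tested genes changed. Of 23 tested genes that start within 2 Mb of the Sox2 start, apart from Sox2 and Sox2ot, 1 changed in this comparison, Gm20515. It is a long noncoding RNA gene that starts upstream, at -222.6 kb from the Sox2 start, and in the RefSeq coordinates is not overlapped by Sox2ot. Gm20515 was at 6.02, 5.85, 5.98 and 5.89 in WT, at 5.29, 5.80 and 5.96 in p27-/- and at 4.99, 5.18 and 4.90 in p27-/-;Sox2+/-. The p27-/-;Sox2+/- samples were again below all others, and p27-/- replicate 1 was the lowest sample with both Sox2 copies. Gm20515 fell by 0.91 against WT (SE 0.15, adjusted p = 0.00729), and the call held in 19 of the 19 alternatives in which the gene was tested. Against p27-/- the difference was -0.66 (SE 0.16, 95% CI -0.999 to -0.32, adjusted p = 0.191, with a range of 0.0276 to 0.94 over the alternatives), and in p27-/- against WT it was -0.25 (SE 0.15, adjusted p = 0.323). Of all tested genes with a symbol, Gm20515 had the value most like that of Sox2ot over the 10 samples (r = 0.96, and 0.78 after the genotype means were taken away). Sox2 and Gm20515 had an r of 0.66 over the samples and of -0.25 after the means were taken away.

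The other 22 tested neighbours did not change in p27-/-;Sox2+/- against WT. None of the 23 changed between the mutants, where 0.145% of all tested genes did. In p27-/- against WT, where 7.78% of all tested genes changed, 1 of the 23 neighbours did. This was Ccna2, which encodes cyclin A2 and starts 1914.9 kb after Sox2. It rose by 0.94 (SE 0.19, adjusted p = 0.0107). The median difference of the 23 neighbours was 0.0514, 0.0024 and 0.008 in the 3 comparisons. Beyond Sox2, Sox2ot and Gm20515, the nearest tested genes started at -592.7 kb from the Sox2 start (Dnajc19) and at 1104.0 kb (Atp11b).

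**Figure D3:**
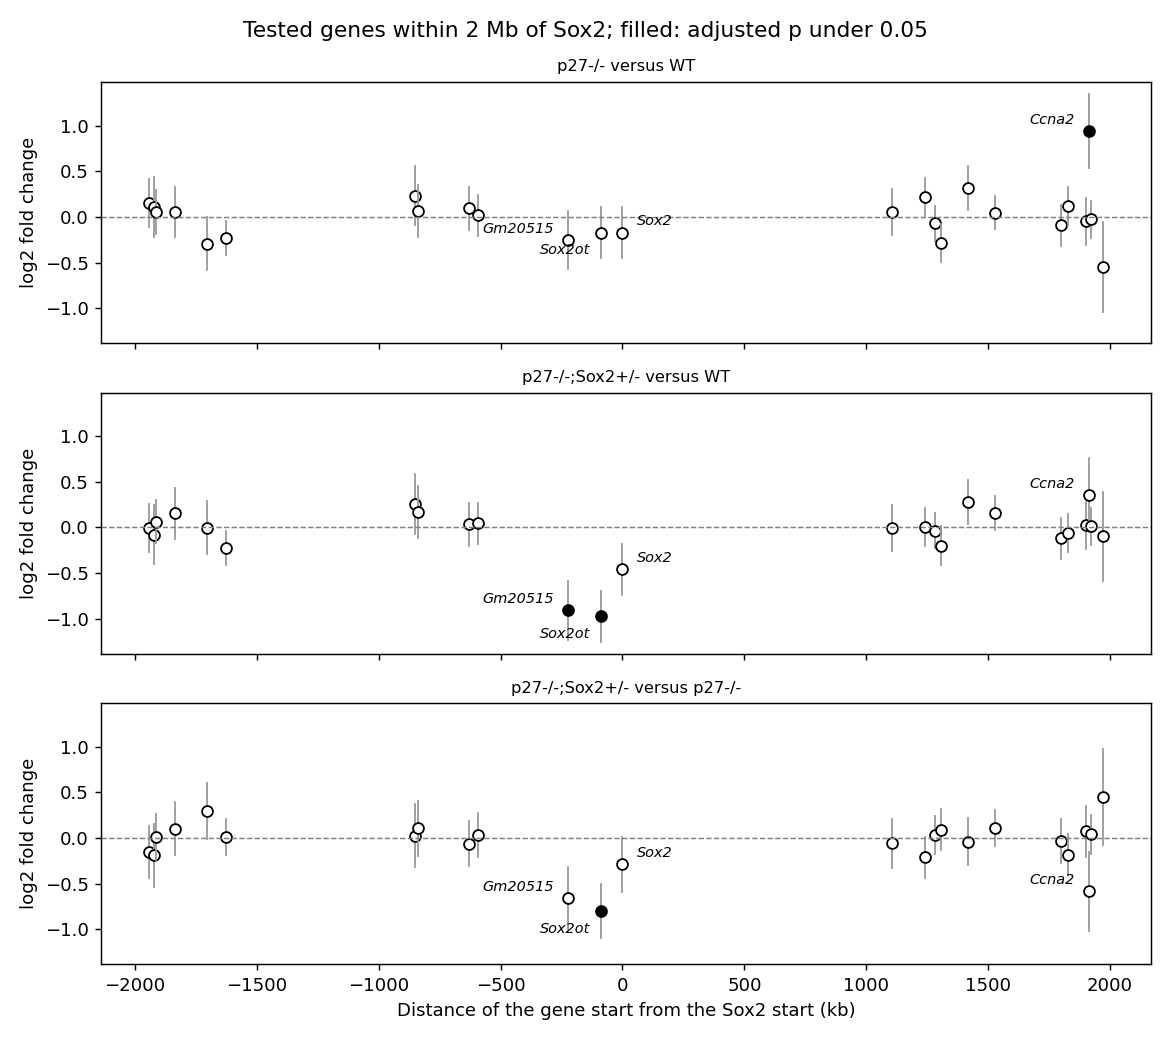
Log2 fold change (vertical axis, with its 95% CI) of Sox2, Sox2ot and the 23 other tested genes within 2 Mb, by distance of the gene start from the Sox2 start in kb (horizontal axis), in the 3 comparisons; filled points have an adjusted p under 0.05. In p27-/-;Sox2+/- against WT, Gm20515 at -0.91, Sox2ot at -0.97 and Sox2 at -0.46 lie below the others.

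Sox3, the X-linked SOXB1 gene used in the developing hypothalamus and infundibulum, was at -1.60 to -1.58 in all 10 samples. That is near the lowest value in the table and below the minimum, so Sox3 was not tested and no fold change is given. Sox1, the remaining SOXB1 gene, was low and variable, at 3.75 to 5.18 in WT, 3.95 to 4.09 in p27-/- and 3.70 to 4.75 in p27-/-;Sox2+/-.

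Sox9, the SOXE factor shared by many pituitary stem cells, was at 8.44, 8.32, 8.53 and 8.60 in WT, at 8.35, 8.23 and 8.32 in p27-/- and at 8.57, 8.25 and 8.36 in p27-/-;Sox2+/-. The 3 genotypes overlapped. The differences were -0.17 in p27-/- against WT (SE 0.10, 95% CI -0.39 to 0.05, adjusted p = 0.337), -0.08 in p27-/-;Sox2+/- against WT (SE 0.10, 95% CI -0.30 to 0.14, adjusted p = 0.739) and 0.09 between the mutants (SE 0.11, 95% CI -0.15 to 0.33, adjusted p = 0.985). Sox8, also SOXE, was at 4.04 to 4.58 in WT and 3.82 to 4.01 in p27-/-. Those ranges did not overlap, and the difference of -0.34 (SE 0.14) did not pass (adjusted p = 0.145).

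Sox11, a SOXC factor of embryonic progenitors and immature neurons, was at 8.94, 9.29, 8.61 and 9.21 in WT, at 10.23, 10.13 and 10.24 in p27-/- and at 9.94, 10.02 and 10.02 in p27-/-;Sox2+/-. All 6 mutant samples were above all 4 WT samples, and the WT samples were the more spread, with an SD of 0.31 against 0.0607 and 0.0452. Sox11 rose by 1.19 in p27-/- (SE 0.13, 95% CI 0.91 to 1.48), 2.28 times the WT level (adjusted p = 0.000396). In p27-/-;Sox2+/- it rose by 0.98 against WT (SE 0.13, 95% CI 0.70 to 1.27), 1.98 times (adjusted p = 0.0027). Both calls held in 20 of 20 alternatives, with an adjusted p of at most 0.00465 and 0.0277. Each p27-/-;Sox2+/- sample was below each p27-/- sample, and the difference between the mutants of -0.21 did not pass (SE 0.14, 95% CI -0.51 to 0.09, adjusted p = 0.927).

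Sox4, the SOXC factor closest to Sox11 in its known roles, gave no call. It was at 8.36, 7.83, 7.29 and 7.86 in WT, at 7.79, 7.70 and 7.66 in p27-/- and at 7.67, 7.57 and 7.56 in p27-/-;Sox2+/-. WT held both the highest and the lowest sample, replicates 1 and 3, and all mutant samples lay between them. The differences were -0.12 in p27-/- against WT (SE 0.18, adjusted p = 0.728), -0.24 in p27-/-;Sox2+/- against WT (SE 0.18, adjusted p = 0.524) and -0.12 between the mutants (SE 0.19, adjusted p = 0.985). The first turned to 0.06 without WT replicate 1. Sox12, the third SOXC gene, had all p27-/-;Sox2+/- samples (7.24 to 7.34) above all WT samples (6.35 to 7.17), with a difference of 0.47 (SE 0.17) that did not pass (adjusted p = 0.152, and 0.0525 to 0.36 over the alternatives).

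Sox5 and Sox6 encode SOXD proteins, which lack a transactivation domain of their own and act with partner proteins. Sox6 was at 8.65, 8.46, 8.27 and 8.70 in WT, at 8.13, 8.21 and 8.02 in p27-/- and at 8.13, 8.10 and 8.24 in p27-/-;Sox2+/-. Every mutant sample was below every WT sample, and the mutants overlapped each other. Sox6 fell by 0.40 in p27-/- (SE 0.11, 95% CI -0.64 to -0.16, adjusted p = 0.0442), to 0.758 times the WT level. That call held in 7 of 20 alternatives. It was lost without WT replicate 1 or 4 (adjusted p = 0.0661 and 0.113), without any 1 of the p27-/- samples (0.12, 0.0844 and 0.173) and without any 1 of the p27-/-;Sox2+/- samples (0.0579, 0.0658 and 0.0519). In p27-/-;Sox2+/- the difference from WT was -0.36 (SE 0.11, 95% CI -0.60 to -0.13) and did not pass (adjusted p = 0.101), though it did without WT replicate 3 (adjusted p = 0.0426). Between the mutants it was 0.03 (SE 0.12, 95% CI -0.22 to 0.29, adjusted p = 0.996).

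Sox5 was at 9.09, 9.14, 9.59 and 9.42 in WT, at 9.14, 9.07 and 9.11 in p27-/- and at 9.27, 9.13 and 9.32 in p27-/-;Sox2+/-. WT replicates 3 and 4 were the highest samples, and the genotypes overlapped. The differences were -0.20 in p27-/- against WT (SE 0.11, adjusted p = 0.303), -0.07 in p27-/-;Sox2+/- against WT (SE 0.11, adjusted p = 0.802) and 0.13 between the mutants (SE 0.12, adjusted p = 0.98). Sox13, the third SOXD gene, was at 6.46 to 6.74 in WT, 6.10 to 6.51 in p27-/- and 6.13 to 6.63 in p27-/-;Sox2+/-, and it did not pass in p27-/- (difference -0.31, SE 0.15, adjusted p = 0.223).

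**Figure D4:**
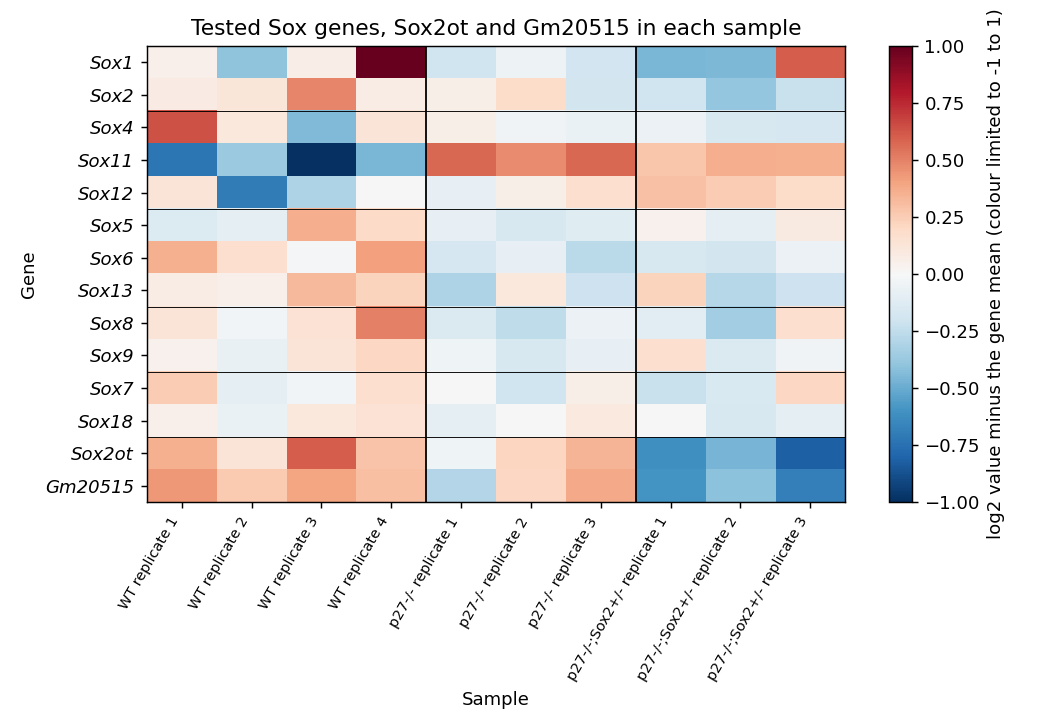
Log2 value minus the gene's mean over the 10 samples (colour, limited to -1 to 1) for the 12 tested Sox genes, grouped by SOX group, and for Sox2ot and Gm20515 (rows), in each sample (columns). Sox11 is low in the 4 WT samples and high in the 6 mutants, and Sox2ot and Gm20515 are low in the 3 p27-/-;Sox2+/- samples; WT replicate 3 has the highest Sox2, Sox2ot and Sox5 and, of the WT samples, the lowest Sox4, Sox6 and Sox11.

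Of 12 further Sox genes listed, 11 were in the table and 6 passed the minimum: Sox1, Sox7, Sox8, Sox12, Sox13 and Sox18. With limma, 0 of the 6 changed in any comparison, and at an unadjusted p under 0.05 there was 1 in p27-/- against WT, Sox8, 1 in p27-/-;Sox2+/- against WT, Sox12, and 0 between the mutants. At the unadjusted threshold the shares over all tested genes were 24.1%, 17.8% and 6.65%. Sox10, Sox15, Sox17, Sox21 and Sox30 lay below the minimum and were not tested.

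WT replicate 3 stood at an end of the WT range for 6 of the 7 tested genes. It was the highest WT sample for Sox2, Sox2ot and Sox5 and the lowest for Sox4, Sox6 and Sox11. Without it 3 of the 7 genes changed in p27-/-;Sox2+/- against WT, Sox6 being added. The genes whose values were most like those of Sox2 over the 10 samples were Gm12096, Pde5a and Casp12 (r = 0.91, 0.90 and 0.90), and the least like was Ccdc101 (r = -0.94). After Gm20515, those most like Sox2ot were Ap3b1 and Nek6 (both r = 0.92), and the least like was Pthlh (r = -0.98). For Sox4 they were Cmklr1, Rhobtb1 and ORF19 (r = 0.96, 0.95 and 0.94), with Kdm3b at -0.95, and for Sox9 they were Ehhadh, Gm44752 and Coch (r = 0.98, 0.92 and 0.91), with Gabarapl2 at -0.93. These correlations share the same 10 libraries and were picked from all tested genes, so they serve only as a description. Among the 7 genes, Sox6 and Sox11 had an r of -0.72, Sox5 and Sox9 of 0.72, Sox2 and Sox11 of -0.67, and Sox4 and Sox6 of 0.62.

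Of 22 genes known to regulate Sox2 or to act with it, 17 were tested. In p27-/- against WT, where 7.78% of all tested genes changed, 2 fell. These were Cdkn1b, which is the gene mutated in these mice by design, and Pax6, a homeodomain factor that partners SOX2 in eye and neural cells. Pax6 was at 7.01 to 7.29 in WT, 6.60 to 6.95 in p27-/- and 7.12 to 7.28 in p27-/-;Sox2+/-. It fell by 0.45 in p27-/- (SE 0.12, adjusted p = 0.0388), a call held in 7 of 20 alternatives. It was lost without WT replicate 1, 2 or 4 (adjusted p = 0.0571, 0.05 and 0.0933), p27-/- replicate 1 or 3 (0.151 and 0.149) or p27-/-;Sox2+/- replicate 1 or 2 (0.0509 and 0.0558). In p27-/-;Sox2+/- against WT, where 2.71% of all tested genes changed, the mutated Cdkn1b was the only one of the 17 that did. Pax6 differed there by 0.03 (SE 0.12, adjusted p = 0.918). Each p27-/-;Sox2+/- sample was above each p27-/- sample for Pax6, with a difference of 0.48 that did not pass (SE 0.13, adjusted p = 0.268). The median over the 17 was 0.0702, 0.0406 and -0.0648 in the 3 comparisons.

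Of 17 tested markers of pituitary stem cells other than Sox genes, 5 fell and 2 rose in p27-/- against WT, 2 fell and 0 rose in p27-/-;Sox2+/- against WT, and 0 changed between the mutants. The other 10 and 15 did not pass against WT. Aldh1a1, a retinaldehyde dehydrogenase, fell by 1.00 (SE 0.19, adjusted p = 0.00876) and by 0.90 (SE 0.19, adjusted p = 0.0256) against WT. Nes, which encodes the intermediate filament nestin, fell by 0.76 (SE 0.16, adjusted p = 0.0114) and by 0.80 (SE 0.16, adjusted p = 0.0177). Both calls in p27-/- were lost without p27-/- replicate 3 (adjusted p = 0.0565 for Aldh1a1 and 0.054 for Nes), and both in p27-/-;Sox2+/- without its replicate 1 (0.112 and 0.0763) or 2 (0.145 and 0.102), with Aldh1a1 lost there also without WT replicate 4 (0.0535). With the centred mean of the posterior lobe markers as a covariate all of these calls were lost, at -0.84 and -0.74 for Aldh1a1 (adjusted p = 0.0548 and 0.148) and -0.62 and -0.65 for Nes (0.0738 and 0.111). The other genes that fell in p27-/- were Cdh1 (-0.58, SE 0.12, adjusted p = 0.0126), Rbpms (-0.65, SE 0.13, 0.0126) and Cyp2f2 (-0.69, SE 0.15, 0.0186). In p27-/-;Sox2+/- against WT they differed by -0.33, -0.41 and -0.45 and did not pass (adjusted p = 0.168, 0.128 and 0.135). Their calls were not followed over the alternatives. The genes that rose in p27-/-, named after their values were seen, were Prrx1, a homeobox factor gene, and Epcam, an epithelial cell adhesion gene. Prrx1 rose by 0.48 (SE 0.10, adjusted p = 0.0135), a call lost without p27-/- replicate 2 or 3 (0.0581 and 0.0714) and with the covariate (0.0761). Epcam rose by 0.35 (SE 0.09, adjusted p = 0.0346), a call held in 8 of 20 alternatives and lost with the covariate (0.166), without WT replicate 3 or 4 (0.0675 and 0.0882), without any 1 of the p27-/- samples (0.112, 0.082 and 0.123) or without p27-/-;Sox2+/- replicate 2 (0.0543). The median over the 17 was -0.26 and -0.19 against WT, while Sox2 and Sox9 differed by -0.17 each in p27-/-. Neither is confined to stem cells in such tissue, as the study places SOX2 also in melanotrophs and SOX9 also in the posterior lobe. The centred mean of the list was 0.12 to 0.20 in WT, -0.24 to -0.015 in p27-/- and -0.17 to -0.0047 in p27-/-;Sox2+/-. The part of a change in stem cell number in the Sox values was not tested.

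Markers of immature neurons, in which Sox11 and Sox4 are known to act, were read beside Sox11. Of 6 markers, 2 rose in p27-/- against WT and 0 changed in the other comparisons. Elavl4, a neuronal RNA-binding protein gene, rose by 0.58 (SE 0.08, adjusted p = 0.00177), and Dcx, which encodes the microtubule protein doublecortin, by 0.74 (SE 0.18, adjusted p = 0.025), though its p27-/- and WT samples overlapped. The rest did not pass. Elavl3, Stmn2 and Tubb3 differed by 0.40, 0.33 and 0.09 (adjusted p = 0.0668, 0.262 and 0.662), and Nefl went the other way, at -0.34 (0.322). The Dcx call was lost in 7 of 20 alternatives, among them leaving out WT replicate 3 or 4 (adjusted p = 0.0554 and 0.0691) or p27-/- replicate 1 or 3 (0.118 and 0.0763). In p27-/-;Sox2+/- against WT, where Sox11 also rose, the differences were 0.26 for Elavl4 (SE 0.08, adjusted p = 0.12) and 0.11 for Dcx (SE 0.18, adjusted p = 0.801). The summed level of the 6 markers was 9.52 to 9.75 in WT, 10.004 to 10.21 in p27-/- and 9.72 to 9.79 in p27-/-;Sox2+/-, and its part in the Sox11 difference was not tested. Elavl4, which had the highest values of the 6, weighs most in this sum.

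Adjoining tissue differed between samples. The summed level of 8 markers of the posterior lobe and its pituicytes was 9.84 to 12.3 in WT, 10.5 to 10.8 in p27-/- and 10.1 to 12.1 in p27-/-;Sox2+/-, with 0 of 8 changed and median differences of -0.68 and -0.60 against WT. The covariate was not this sum but the centred mean of the markers, each taken as its log2 value minus its own mean over the samples. It was -0.59 to 0.84 in WT, -0.37 to -0.02 in p27-/- and -0.69 to 0.49 in p27-/-;Sox2+/-. With this covariate, Sox11 stayed past the threshold in both mutants against WT (adjusted p = 0.00345 and 0.0277), as did Sox2ot in p27-/-;Sox2+/- (adjusted p = 0.0265). Sox6 in p27-/- did not, at -0.36 against -0.40 without the covariate (adjusted p = 0.189), nor did Sox2ot between the mutants, at -0.80 in both fits (adjusted p = 0.0542). Sox2 and Sox9, which had not passed without the covariate, did not pass with it against WT. Their adjusted p was 0.688 and 0.693 in p27-/- and 0.256 and 0.968 in p27-/-;Sox2+/-. Over all tested genes the calls in p27-/- against WT went from 1343 to 366 with this covariate. The summed level of 8 genes of the anterior lobe hormone list also ranged widely. It was 13.9 to 17.8 in WT, 12.8 to 16.6 in p27-/- and 13.4 to 14.8 in p27-/-;Sox2+/-, and no covariate was fitted for it. The highest sums were mostly Prl, at 17.5 in WT replicate 2 and 16.3 in p27-/- replicate 1. How far the sum follows the amount of anterior lobe tissue was not tested. Of these 8 genes 2 fell in p27-/- and 1 in p27-/-;Sox2+/- against WT. Among 5 tested glial markers 1 fell in p27-/- and 0 in p27-/-;Sox2+/-. Of 8 endothelial markers 1 fell in each mutant against WT, and of 6 fibroblast markers 2 fell in p27-/- and 0 in p27-/-;Sox2+/-. Of 12 melanotroph markers 2 rose and 1 fell in p27-/-, and 1 fell in p27-/-;Sox2+/-. Of 6 proliferation genes 5 rose in p27-/- and 2 in p27-/-;Sox2+/-. None of these lists had a gene that changed between the mutants, 0 in each. The part of these markers in the Sox values was not tested beyond the posterior lobe covariate.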

How the data were processed

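Bulk RNA sequencing of dissected IL from 10 mice was used. Reads were aligned with STAR 2.5.2a and assigned to GRCm38 genes without regard to strand with RSEM 1.3.30, and DESeq2 1.18.1 normalised them (all per the submitters' notes and the study's methods). The authors deposited log2 values, and the transformation is not given in the sources used here. Genes of low mean lie close together (median SD 0.0364 below the minimum and 0.168 above it), so fold changes of low genes are likely understated. 0 sample columns were left unused, and depth is unknown.

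Gene IDs were named from a reference table (22516 of 29527) or from ID and symbol pairs in the study's gene lists (547, among them Sox2ot and Sox1), and 6464 have no symbol. The minimum mean for testing was 3.32 on the log2 scale, or 10 when made linear. A single limma 3.58.1 fit in R 4.3.3 held all 3 genotypes, with the trend option of eBayes. P-values were adjusted by Benjamini-Hochberg over the tested genes, and under 0.05 was called. The script was also tested on simulated data. Tables and figures were made in Python 3.11.15 with pandas 2.3.3 and matplotlib 3.10.9. Replicates are separate labelled samples of a genotype. The named genes are the 8 members, other Sox genes past the threshold or with high means, tested genes within 2 Mb of Sox2, up to 4 genes of each list past the threshold (only those that bear on Sox genes are given with values), and for Sox2, Sox2ot, Sox4 and Sox9 the 3 most and 1 least similar genes. Of the stem cell markers, all that passed in p27-/- against WT are named. Members and lists were chosen with earlier results of these data known. Alternatives were leaving out each sample, array weights, a fit without trend, fits of 2 groups only, a minimum of 50 or no filter, quantile normalization, centring by medians, a replicate block, and Xist or posterior lobe markers as a covariate. Promoter sequences are RefSeq's for GRCm38.p6, where 5 of the 8 members had an entry.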

Additional observations from a re-analysis of the deposited data

Results flagged for a closer look

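In WT, replicate 3 had more Sox2 than the other 3 mice, at 7.75 against 7.34 to 7.39, and the gap to the nearest of them was 0.885 of the whole WT range. A gap of that size was found in WT for 1 of the 8 genes, and chance gives one in about 1 in 20 groups of this size. The mutant groups of 3 are too small for this rule. Without this sample the Sox2 difference of p27-/-;Sox2+/- from WT was -0.36 (adjusted p = 0.145 with limma), against -0.46 with it.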

How the results depend on the processing

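Sox11 in both mutants against WT, and Sox2ot in p27-/-;Sox2+/- against WT, kept their direction and stayed past the threshold under all 20 alternatives. The number of Sox genes changed in p27-/- against WT went from 2 to 1, Sox6 being lost, with no filter, only the 2 groups compared, the replicate block, the Xist covariate and the posterior lobe covariate, and was 1 to 2 with 1 sample left out. In p27-/-;Sox2+/- against WT it was 4 with array weights, where Sox2 (-0.48, adjusted p = 0.0275) and Sox6 (adjusted p = 0.0182) also passed. Between the mutants the 1 changed gene, Sox2ot, was lost, leaving 0, with no filter (-0.80, adjusted p = 0.096), no trend (-0.80, 0.069), quantile normalization (-0.80, 0.0553), the replicate block (-0.80, 0.15) and the posterior lobe covariate (-0.80, 0.0542). With 1 sample left out the count was 0 to 1 and the Sox2ot difference -0.91 to -0.71. No filter adds genes to the adjustment, and for the other alternatives the cause was not tested. Differences near 0 changed sign: Sox4 in p27-/- against WT without WT replicate 1 (0.0561, and -0.30 to 0.0561 over all samples left out), Sox5 in p27-/-;Sox2+/- against WT with the posterior lobe covariate (0.0322) or without WT replicate 3 (0.0228, range -0.14 to 0.0228), Pax6 there with array weights (-0.0344) or without WT replicate 3 (-0.0241, range -0.0241 to 0.0825), Dcx there with the posterior lobe covariate (-0.0523), and Sox6 between the mutants without p27-/- replicate 3 (-0.014) or p27-/-;Sox2+/- replicate 3 (-0.0055), with a range of -0.014 to 0.0802.

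The replicate numbers were not taken to pair the samples. Deviations from the genotype means correlated at -0.24 to 0.18 over the tested genes for same-numbered samples and at -0.19 to 0.26 for different-numbered ones. With so few samples these correlations cannot exclude a pairing. With the replicate number as a block, 595 genes changed in p27-/- against WT, 209 in p27-/-;Sox2+/- against WT and 2 between the mutants, against 1343, 468 and 25 without it, and the Sox6 difference in p27-/- was -0.34 (adjusted p = 0.151). Over all tested genes the counts also fell with the posterior lobe covariate (366, 107 and 20) and rose with array weights (1764, 1240 and 283). A mean of at least 50 gave 1181, 397 and 17, no trend 1288, 475 and 8, and no filter 831, 312 and 6. The depth of each sample is unknown, and 3 mice a mutant genotype limit the precision.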
